A study of Mus musculus with 6 samples.

Results

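The comparison sets 1 RNA-seq library of spleen dendritic cells from mice given naive CD4 T cells against 1 library of spleen dendritic cells from mice given regulatory T cells (Treg). A gene counted as a member where its level was at least 1 FPKM, a fragment count set against transcript length and library size, in at least 1 of the 2 libraries and where it did not lie on chromosome X or Y. This gave 10058 genes of the 21914 in the table. All mice were C57BL/6, were kept germ-free and lacked a Rag gene. They therefore made no T or B cells of their own, and the transferred cells were the only T cells the host could hold. Both T cell populations had been purified by flow cytometry. They were given 1 week before the spleen was taken, and the dendritic cells were then sorted.

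The study holds 6 libraries, which cross spleen and peripheral lymph node with naive T cells, Treg or no injection, each group with 1 library. Its title concerns how T cells, when unregulated, activate antigen-presenting cells and break self-tolerance. The naive and Treg spleen libraries are the subject here. The other 4 are given only where they place a value. No source used here gives the sort gate, the number of mice behind a library, their age or sex, or which Rag gene was missing. With 1 library a side there is no error on any difference below, no test was made, and "higher" or "lower" describes these 2 libraries. Fewer cells of a type and less RNA per cell cannot be told apart in such a sample.

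Dendritic cells take up antigen, present it on MHC molecules and give the costimulatory signals that decide whether a T cell is activated or made tolerant. Signals return from the T cell: CD40 ligand drives dendritic cell maturation, and interferon-gamma acts through the kinases JAK1 and JAK2 on genes with so-called GAS elements in their promoters. Type I interferons act through a complex that holds STAT2 and IRF9 and binds the interferon-stimulated response element, a pair of GAAA repeats. Treg restrain this exchange, in part by removing CD80 and CD86 from the dendritic cell surface through CTLA-4.

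Both libraries carried the transcripts of dendritic cells. Itgax, the CD11c integrin chain, was at 377 FPKM with naive T cells and 385 FPKM with Treg, and Zbtb46, a factor of conventional dendritic cells, was at 18.003 and 15.2 FPKM. The defining T cell markers that had values were at or near 0. Cd3e and Cd3g were listed at 0 in both libraries and Cd3d at 0.426 FPKM with naive T cells and 0 with Treg. The receptor constant genes Trac and Trbc2 had no values. Of the B cell markers, Cd79a was listed at 0 in both and Pax5 at 0.0655 FPKM with naive T cells and 0 with Treg, while Ms4a1, which encodes CD20, was at 2.30 FPKM with naive T cells and 2.83 FPKM with Treg. Of the natural killer cell markers, Gzma and Eomes were listed at 0 in both, and Ncr1 and Klrb1c were at 0 with naive T cells and at 0.370 and 0.353 FPKM with Treg.

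The 2 libraries were alike in scale. Their values summed to 655903 and 657560, 9936 and 9959 genes reached 1 FPKM, and the median log2 ratio of naive over Treg was -0.01 over the members, with the quartiles at -0.29 and 0.27. Ratios are taken on values + 0.5 throughout, which understates the fold of low genes.

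At 2-fold or more, 459 members (4.56%) were higher with naive T cells and 405 (4.03%) were lower. Many of these rest on low values. Members that reached 1 FPKM in 1 library only numbered 818, and they supplied 236 of the higher and 201 of the lower genes, which the rule itself had favoured. Among genes with a mean of the 2 libraries below 2 FPKM 30.1% lay past 2-fold, against 5.21% between 5 and 20 FPKM and 1.61% at 100 FPKM or more. Of genes at 5 FPKM or more in at least 1 of the libraries, 195 were higher and 165 lower. Genes ranked for naming by ratio came from those at this level. Genes under it are given as levels.

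**Figure D1:**
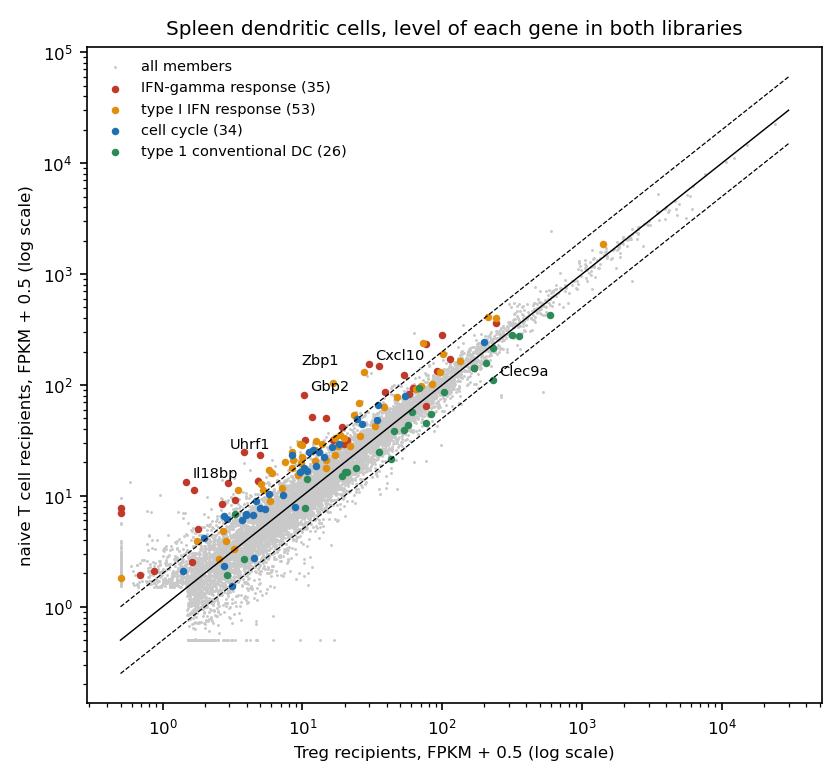
Level of each member in the Treg library (horizontal) and the naive T cell library (vertical) of spleen dendritic cells, as FPKM + 0.5 on log axes; the solid line marks equal levels, the dashed lines 2-fold, and each colour 1 gene list. The interferon-gamma response genes lie on average farthest above the line, with Gbp2 at 80.2 against 9.69 FPKM, while Clec9a lies below it at 109.9 against 229.8 FPKM.

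The interferon response genes stood higher in the naive T cell library. Of 35 measured genes of the interferon-gamma response 33 were higher and 24 were at least 2-fold higher, against 4.56% of all members, and the median ratio was 2.83-fold. The type I interferon response was higher in all 53 of its measured genes, 23 of them at least 2-fold, with a median of 1.86-fold. None of the 88 genes was 2-fold lower. Naive T cell recipients thus had the higher level for 86 of 88 genes, where 49% of all members were higher. Members through 1 library only, the one where they were higher, were 5 of the 35 genes and 1 of the 53.

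The promoters of genes that carried this difference show the 2 elements, and are printed here so that each element can be seen in place. They are RefSeq windows of 300 bases on GRCm38.p6, from 250 bases before to 50 bases after the start site, on the strand of the gene. Capitals mark every match to GAAANNGAAA, the core of the interferon-stimulated response element, or to TTCNNNGAA, the GAS core, on either strand. Serpina3f and Isg15 were taken for their ratios within their lists, and Gbp2 and Cxcl10 were added after their values were seen. Gbp2 lies at chr3:142620413-142620712 (plus strand), Cxcl10 at chr5:92348840-92349139 (minus strand), Isg15 at chr4:156200769-156201068 (minus strand) and Serpina3f at chr12:104214294-104214593 (plus strand).
Gbp2: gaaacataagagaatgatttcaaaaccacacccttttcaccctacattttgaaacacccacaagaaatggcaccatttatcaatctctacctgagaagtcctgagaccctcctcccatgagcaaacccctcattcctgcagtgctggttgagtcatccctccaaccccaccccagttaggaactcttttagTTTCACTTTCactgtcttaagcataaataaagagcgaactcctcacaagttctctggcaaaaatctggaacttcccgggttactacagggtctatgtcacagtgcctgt
Cxcl10: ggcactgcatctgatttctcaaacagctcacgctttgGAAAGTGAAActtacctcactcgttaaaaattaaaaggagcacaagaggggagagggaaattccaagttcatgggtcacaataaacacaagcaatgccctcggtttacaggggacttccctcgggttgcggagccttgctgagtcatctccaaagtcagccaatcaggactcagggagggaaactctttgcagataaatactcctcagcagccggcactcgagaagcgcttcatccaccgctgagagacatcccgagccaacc
Isg15: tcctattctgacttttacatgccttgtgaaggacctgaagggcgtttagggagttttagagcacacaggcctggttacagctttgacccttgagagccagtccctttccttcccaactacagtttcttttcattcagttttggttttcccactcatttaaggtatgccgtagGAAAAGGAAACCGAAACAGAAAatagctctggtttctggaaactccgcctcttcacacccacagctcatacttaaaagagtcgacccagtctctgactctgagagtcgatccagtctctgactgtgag
Serpina3f: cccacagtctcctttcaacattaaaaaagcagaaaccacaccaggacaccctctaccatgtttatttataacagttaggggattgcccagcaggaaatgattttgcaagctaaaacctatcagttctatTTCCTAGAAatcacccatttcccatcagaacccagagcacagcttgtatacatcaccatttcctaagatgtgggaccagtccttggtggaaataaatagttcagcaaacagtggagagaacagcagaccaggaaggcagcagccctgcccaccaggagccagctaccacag

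Gbp2 holds 1 GAAA pair, on the reverse strand, Cxcl10 holds 1, Isg15 holds 3 that overlap one another, and Serpina3f holds 1 GAS core. Il18bp, the gene of the list with the next highest ratio, holds neither in its window. Of all 27025 RefSeq windows 3.49% held GAAANNGAAA and 8.47% held TTCNNNGAA. Of the 7840 members with such a window 3.46% held the GAAA pair, and of 324 genes at least 2-fold higher with naive T cells 14.5% held it. Among the 307 with a window that were at least 2-fold lower the share was 2.61%. Without the genes of both interferon lists 26 of 291 higher genes (8.93%) still held it. The GAS core stood in 11.1% of the higher, 6.51% of the lower and 7.14% of all members, and in 13 of 26 interferon-gamma response genes with a window. A match is a description of the letters and not a bound site.

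The interferons themselves were hardly measured in these cells. Of 21 interferon genes measured, 19 were listed at 0 in both spleen libraries, among them Ifng and Ifnb1, and Ifna14 was listed at 2.29 FPKM with naive T cells and at 0 with Treg. The receptors and kinases named here lay within 2-fold. Ifngr1, the ligand-binding chain of the interferon-gamma receptor, was at 304 FPKM with naive T cells and 424 FPKM with Treg, and Ifngr2, the signalling chain, at 55.1 and 40.8 FPKM. Jak1 was at 57.5 and 55.3 FPKM and Jak2 at 117 and 109 FPKM. A list of 26 receptors, kinases, STAT and IRF factors and feedback inhibitors, which leaves out the factors placed on the interferon lists, had a median log2 ratio of 0.11. Tyk2, a kinase, was the lowest of the 26 at a log2 ratio of -0.52, and Ifngr1 stood at -0.48. Of the 26, 1 gene, the feedback inhibitor Cish, was at least 2-fold higher. Its levels, 4.81 and 1.65 FPKM, were under the level set for naming by ratio.

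Transcription factors on the interferon lists did not all go one way. Stat2 was at 29.0 FPKM with naive T cells and 13.2 FPKM with Treg, and Irf9, its partner, at 63.0 and 37.9 FPKM. Irf1, which drives MHC class I genes, was at 124 and 52.6 FPKM, and Irf7, which amplifies type I interferon output, at 189 and 101.5 FPKM. Irf8, on the interferon-gamma list, was lower with naive T cells, at 141 against 167 FPKM, and so was Irf3, of the list of STAT and IRF factors, at 37.9 against 53.2 FPKM.

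GTPases of cell-autonomous defence were among the genes with high ratios. Gbp2, a guanylate-binding protein that attacks the vacuoles of pathogens, was at 80.2 FPKM with naive T cells, 9.69 FPKM with Treg and 14.7 FPKM in un-injected mice, a naive over Treg ratio of 7.91-fold. It lies on chromosome 3 from 142620602 to 142638008 (GRCm38), and in the authors' deposited table it had a p-value of 0.0024 and a q-value of 0.562. Gbp5, its relative, was at 24.5, 3.32 and 4.60 FPKM in the same order. Both were thus high in the naive T cell library alone among the 3 of spleen.

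The immunity-related GTPases were higher too. Igtp was at 22.9 FPKM with naive T cells and 4.50 FPKM with Treg, Irgm1 at 50.3 and 14.3 FPKM and Ifi47 at 50.4 and 11.2 FPKM. Igtp and Irgm2 overlap on chromosome 11 and Tgtp1 and Tgtp2 are nearly identical, so reads could be split between them, and their separate values are uncertain. Iigp1, of the same family, was at 7.33 FPKM with naive T cells and listed at 0 with Treg, so no fold is given. Serpina3f, a serine protease inhibitor with near copies in its cluster, was at 6.46 FPKM and likewise listed at 0 with Treg. In the authors' deposited table Iigp1 and Serpina3f each had a q-value of 0.0517.

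Antiviral effectors were also higher. Isg15, a ubiquitin-like modifier, was at 238 FPKM with naive T cells and 71.8 FPKM with Treg, a ratio of 3.30-fold. Rsad2, which encodes viperin, was at 24.6 and 7.89 FPKM, and Ifit2 at 19.7 and 6.97 FPKM. At the low end of the list, Cmpk2 was at 2.82 and 2.73 FPKM and Mx1 at 27.7 and 21.5 FPKM, so the genes of 1 response ranged from near equality upward. Zbp1, a sensor of Z-form nucleic acid that can start necroptosis, was at 132 and 26.9 FPKM. Mlkl, the executor of necroptosis, was low at 2.15 and 0.217 FPKM and reached 1 FPKM with naive T cells only. Ripk3, another gene of necroptosis, was near equality at a log2 ratio of -0.12. Ly6a, the surface protein Sca-1, was at 103 FPKM with naive T cells, 15.99 FPKM with Treg and 39.01 FPKM in un-injected mice, with the Treg library the lowest of the 3.

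Secreted products followed. Cxcl9 and Cxcl10, the chemokines that draw CXCR3-bearing activated T cells, were at 147.5 and 153 FPKM with naive T cells and at 34.6 and 29.5 FPKM with Treg. In un-injected mice they stood between these values, at 85.5 and 52.1 FPKM. Il18bp, the secreted inhibitor of interleukin 18, was at 12.8, 0.98 and 2.45 FPKM in naive, Treg and un-injected libraries, and overlaps Numa1 on chromosome 7. Cfb, factor B of the alternative complement pathway, was at 13.3 and 2.14 FPKM with naive T cells and Treg. C3, on which that pathway converges, was at 8.93 and 2.17 FPKM. The complement list as a whole showed no common direction. Of its 11 measured genes 5 were higher and 6 lower, against 49% and 51% of all members. Its median log2 ratio was -0.06, with 2 genes at least 2-fold higher and 1 lower, against 4.56% and 4.03%. Cd274, which encodes the inhibitory ligand PD-L1, was at 86.2 FPKM with naive T cells, 38.7 FPKM with Treg and 18.5 FPKM in un-injected mice.

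**Figure D2:**
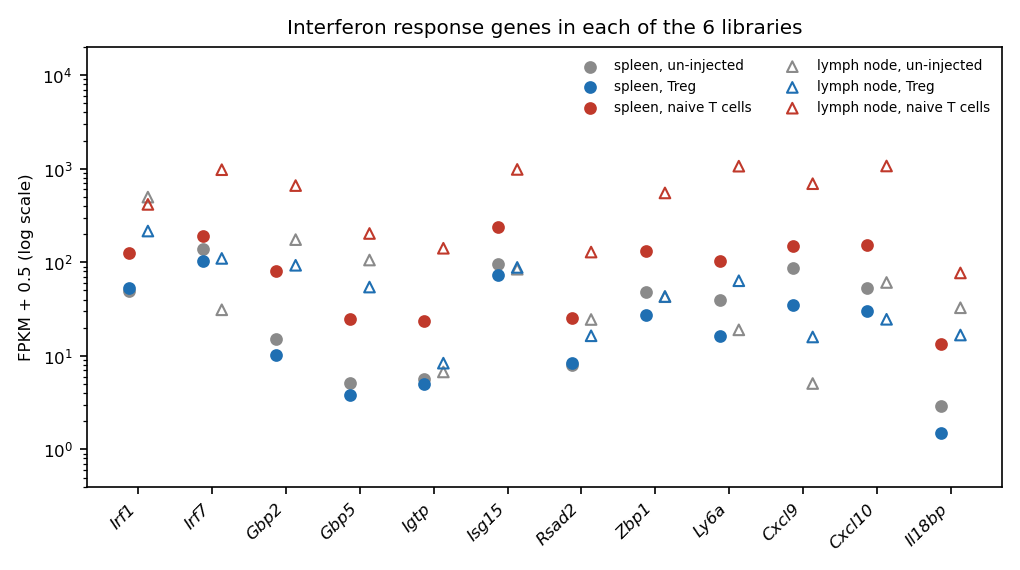
Level (FPKM + 0.5, log axis) of 12 interferon response genes in each of the 6 libraries; filled circles are spleen, open triangles lymph node, and colour gives the cells transferred. In spleen the naive T cell library is the highest of the 3 for every gene shown. An example is Cxcl10, at 153 FPKM against 29.5 FPKM with Treg and 52.1 FPKM un-injected. The 12 genes were chosen for display. Of the full lists, 4 of 35 interferon-gamma genes and 10 of 53 type I genes were highest in un-injected spleen.

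The un-injected spleen library places these levels. Of the 35 interferon-gamma response genes 28 were nearer there to the Treg level than to the naive level, as were 35 of the 53 type I genes, against 47.1% of all members. Not every gene followed: 4 of the 35 and 10 of the 53 were higher in un-injected mice than in either recipient. Summed levels, which the most abundant genes dominate, placed the 2 lists differently. With naive T cells, Treg and no injection the interferon-gamma list summed to 2556, 1282 and 1568 FPKM. The type I list summed to 4975, 3110 and 4752 FPKM, so that there the un-injected sum was nearer to the naive one.

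Genes of another cell type that also carries an interferon response gave mixed values. Fcgr1, the high-affinity Fc receptor of monocytes, was at 7.97 FPKM with naive T cells and 2.08 FPKM with Treg. Ly6c2, the defining gene of inflammatory monocytes, was at 11.0 and 9.05 FPKM, and Ccr2, their chemokine receptor, was lower with naive T cells at 13.8 against 25.8 FPKM. Of 24 measured monocyte genes 7 were higher with naive T cells and 17 lower, against 49% and 51% of all members. Their median log2 ratio was -0.36. Summed over its 25 genes the monocyte list was at 5027 FPKM with naive T cells, 4898 FPKM with Treg and 7493 FPKM in un-injected mice. The part of such cells in the interferon values was not tested.

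Antigen presentation split by class. MHC class I presentation genes had a median log2 ratio of 0.35, and 17 of 21 were higher, against 49% of all members. H2-Q6 was at 127 FPKM with naive T cells and 53.5 FPKM with Treg, and H2-Q4 at 142.5 and 68.6 FPKM, the 2 of the list past 2-fold, though the H2-Q genes are close copies and their reads can be exchanged. B2m, the light chain that all class I molecules share, was at 5294 and 3500.3 FPKM, and Nlrc5, the transactivator of class I genes, at 41.3 and 18.7 FPKM. The classical heavy chains differed less, with H2-K1 at 1343 and 1045 FPKM.

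Class II genes did not take part. The 19 class II presentation genes had a median log2 ratio of -0.05, and none was past 2-fold. In number 8 were higher and 11 lower, against 49% and 51% of all members. H2-Ab1 was at 11163 and 12168 FPKM, and Ciita, the class II transactivator and itself an interferon-gamma target in other cells, was at 64.6 and 75.6 FPKM. Peptide supply was slightly higher: 29 of 31 core and regulatory proteasome subunits were higher, against 49% of all members. Their median was 0.29 and none was past 2-fold. Psme2, a subunit of the interferon-inducible proteasome activator, was at 548 and 324 FPKM, while Tap2, a chain of the peptide transporter, was at 66.5 and 68.4 FPKM.

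Costimulation was higher for some ligands. Of 22 costimulatory and coinhibitory genes 6 were at least 2-fold higher, against 4.56% of all members, and none 2-fold lower, with a median log2 ratio of 0.15. Of the 22, 3 reached 1 FPKM in 1 library only. Cd40, the receptor for CD40 ligand on T cells, was at 99.3 FPKM with naive T cells, 45.1 FPKM with Treg and 91.3 FPKM in un-injected mice. Cd80 and Cd86, the ligands of CD28 and CTLA-4, were at 108.5 and 205 FPKM with naive T cells and at 87.7 and 175 FPKM with Treg, well inside 2-fold. Pdcd1lg2, which encodes PD-L2, was at 7.90 and 3.30 FPKM and Tnfrsf14, the herpesvirus entry mediator, at 15.4 and 6.09 FPKM. Btla, an inhibitory receptor that type 1 dendritic cells express, was lower with naive T cells, at 45.4 against 75.6 FPKM.

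The maturation and migration program was also higher with naive T cells, by less than the interferon response. Of 32 genes 27 were higher and 6 at least 2-fold, against 49% and 4.56% of all members, with none 2-fold lower and a median log2 ratio of 0.49. Ccl22, a chemokine that attracts Treg through CCR4, was at 20.6 FPKM with naive T cells and 5.601 FPKM with Treg, below the 33.7 FPKM of un-injected mice. Il15, a cytokine for memory T and natural killer cells, was at 25.5 and 7.87 FPKM. Fscn1, which encodes the actin-bundling protein of dendrites, was at 93.8 and 42.4 FPKM, and Ccr7, the receptor that leads dendritic cells along lymphatics, at 508 and 312 FPKM. Un-injected mice had 66.4 and 356 FPKM of the last pair, between the naive and the Treg level. Of the 32 genes 12 lay between in un-injected mice, 11 above both and 9 below both.

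NF-kB subunits and their feedback genes, which act downstream of CD40, were near equality. The median log2 ratio of 23 such genes was 0.08, with Rel at 136 and 122 FPKM and Rela at 47.6 and 60.4 FPKM with naive T cells and Treg. The exception was Junb, an AP-1 factor kept on this list and on that of immediate early genes. Junb was at 80.5 FPKM with naive T cells, 262 FPKM with Treg and 114 FPKM in un-injected mice. Of 31 immediate early genes 21 were lower with naive T cells, against 51% of all members, at a median of -0.25. Junb was the only gene of the 31 past 2-fold. Fos was at 431 and 542 FPKM and Nr4a1 at 739.5 and 926 FPKM. Such genes also respond to handling of cells within minutes, and the part of handling in these values was not tested.

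Among cytokines, Tnf was at 98.0 FPKM with naive T cells and 43.1 FPKM with Treg, and Flt3l, the growth factor of dendritic cells, at 16.7 and 7.45 FPKM. Il1b, the most abundant cytokine of the list, was at 1917 and 1912 FPKM and Il12b, the shared subunit of interleukins 12 and 23, at 35.3 and 25.5 FPKM. Of 21 measured cytokines 15 were higher, 4 at least 2-fold, against 49% and 4.56% of all members, and the median log2 ratio was 0.20. Only 1 library reached 1 FPKM for 3 of the 21. The cytokine past 2-fold in the other direction was Tnfsf13, which encodes APRIL, at 0.000322 FPKM with naive T cells and 1.46 FPKM with Treg. Chemokines went both ways. Ccl3 was at 343 and 141 FPKM and Ccl4 at 768 and 458 FPKM, whereas Ccl2, which recruits monocytes, was at 6.06 FPKM with naive T cells and 19.8 FPKM with Treg.

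**Figure D3:**
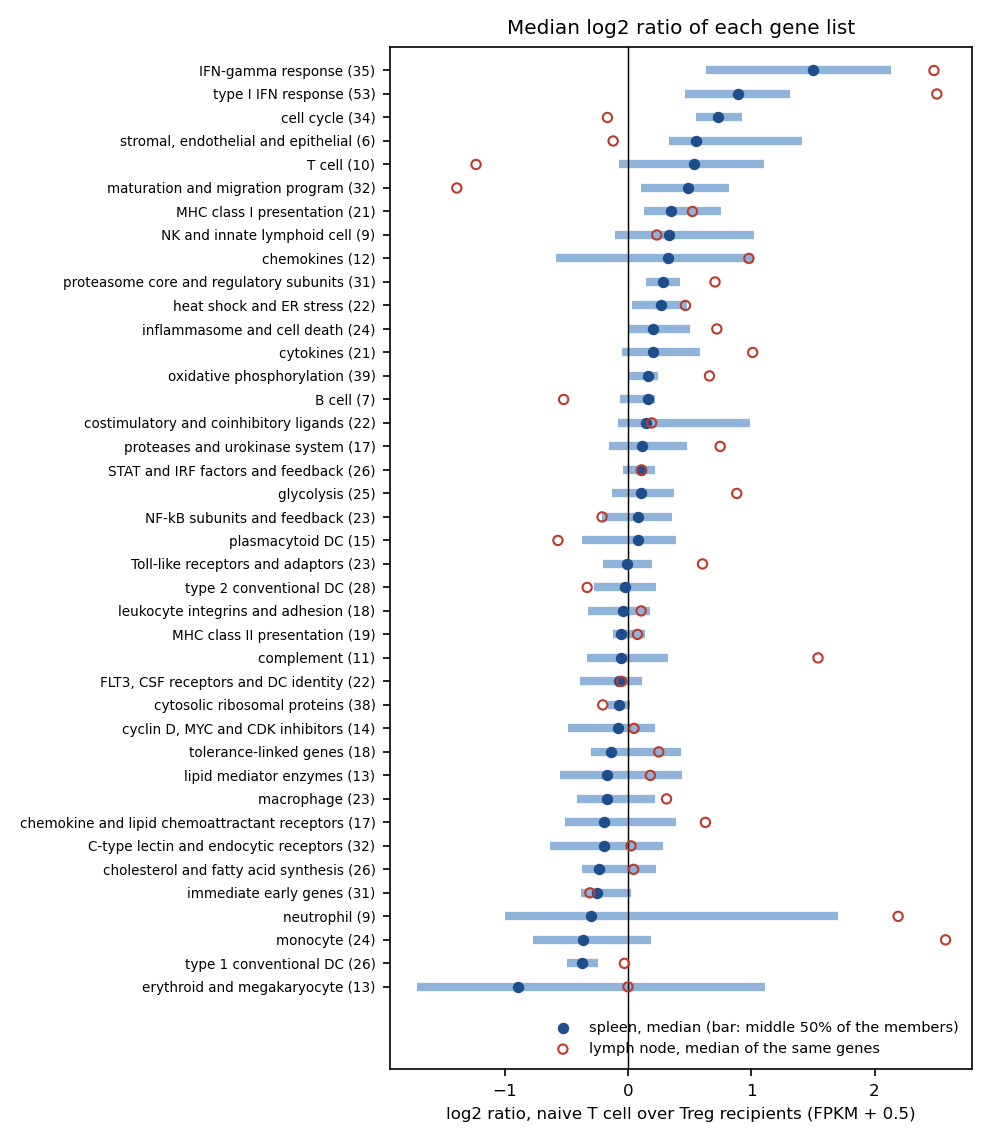
Median log2 ratio of naive T cell over Treg recipients for each gene list with at least 6 members (number in brackets); filled points are spleen with a bar between the quartiles, open points the same genes in lymph node. The type I interferon list stands at 0.89 in spleen and 2.51 in lymph node, and the maturation list at 0.49 and -1.39.

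Cell cycle genes were higher with naive T cells. Of 34 genes 30 were higher, 6 at least 2-fold, against 49% and 4.56% of all members, and their median log2 ratio was 0.73. The same genes stood at a median of -0.17 in lymph node, with 22 of the 34 lower, where 49.2% of all spleen members were higher. In number 19 of the 34 were higher in spleen and lower in lymph node. Uhrf1, which keeps DNA methylation through replication, was at 22.8 FPKM with naive T cells and 7.89 FPKM with Treg. Mcm5, of the replicative helicase, was at 66.0 and 33.96 FPKM, and Cdk1, the kinase of mitotic entry, at 24.2 and 10.6 FPKM. Plk1 went the other way, at 1.03 and 2.62 FPKM, low in both. The Treg library was the low one: un-injected mice had 18.5 FPKM of Uhrf1, 66.5 FPKM of Mcm5 and 34.6 FPKM of Cdk1. In un-injected spleen 28 of the 34 genes were nearer to the naive level, while 47.1% of all members were nearer to the Treg level. Ccnd2, a D cyclin of growth factor response, was at 28.2 and 11.4 FPKM with naive T cells and Treg. Brca1, of DNA repair, was at 6.49 and 0.937 FPKM.

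Genes of type 1 conventional dendritic cells, which cross-present antigen to CD8 T cells, were slightly lower with naive T cells. Of 26 genes 23 were lower, against 51% of all members, but only 1 past 2-fold, and the median log2 ratio was -0.37. Clec9a, the receptor for dead cells, was at 109.9 FPKM with naive T cells, 229.8 FPKM with Treg and 344 FPKM in un-injected mice. Xcr1, a chemokine receptor of this subset, was at 24.3, 34.8 and 46.2 FPKM in the same order, and Plpp1, a lipid phosphatase, at 21.1, 42.3 and 51.2 FPKM. The naive library was the lowest of the 3 for each of them. Their transcription factors differed less, with Batf3 at 43.0 and 55.9 FPKM and Irf8 at 141 and 167 FPKM with naive T cells and Treg. The exceptions were Gpr33, Ifi205 and Ly75, with Gpr33 at 6.38 and 2.82 FPKM. Ifi205 also stands on the type I interferon list.

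**Figure D4:**
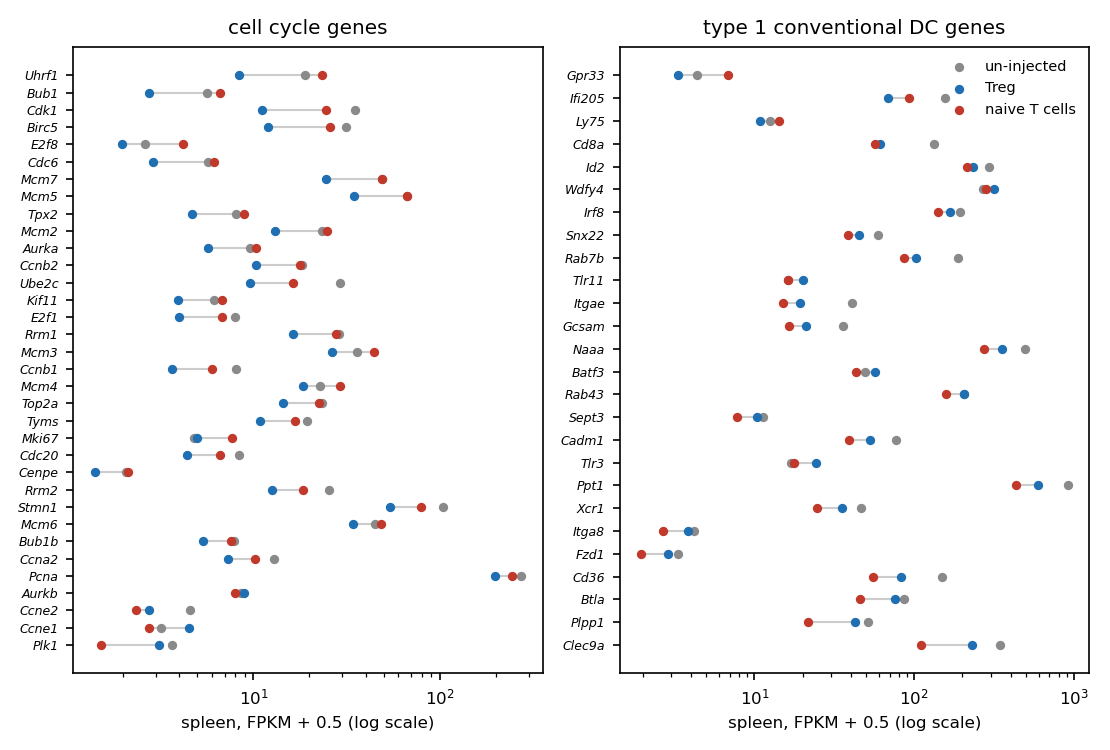
Level (FPKM + 0.5, log axis) of the genes of the cell cycle list (left) and of the type 1 conventional dendritic cell list (right) in the 3 spleen libraries, ordered by the ratio of naive over Treg. Among members, for 30 of 34 cell cycle genes the naive point lies to the right of the Treg point, and for 23 of 26 type 1 genes to the left.

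Type 2 conventional dendritic cells, which mainly prime CD4 T cells, showed no common direction. Their 28 genes had a median log2 ratio of -0.02, with Sirpa at 123 FPKM with naive T cells and 114 FPKM with Treg and Itgam at 46.4 and 48.5 FPKM. The general identity genes had a median of -0.07. Flt3, the growth factor receptor of the lineage, was lower with naive T cells at 146 against 221 FPKM. The 15 measured plasmacytoid genes had a median log2 ratio of 0.08, with 9 higher and 6 lower, against 49% and 51% of all members. Only 1 library reached 1 FPKM for 4 of the 15. Of the defining plasmacytoid markers, Siglech was at 0.248 FPKM with naive T cells, 4.19 FPKM with Treg and 13.7 FPKM un-injected, Ccr9 at 3.159 and 4.87 FPKM with naive T cells and Treg, and Klk1 was listed at 0 in both.

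Genes of other cells moved between the libraries and stand beside these values. Of 13 erythroid and megakaryocyte genes 6 were at least 2-fold lower and 4 at least 2-fold higher with naive T cells, against 4.03% and 4.56% of all members. Of the 13, 5 reached 1 FPKM in 1 library only, and many are low genes, which often pass 2-fold. Hbb-bs, a beta globin chain, was at 76.8 FPKM with naive T cells, 263 FPKM with Treg and 394 FPKM in un-injected mice, and Hba-a1 at 28.4, 97.0 and 146 FPKM. Globin copies share reads, but both chains were lowest in the naive library. S100a8 and S100a9, the calprotectin chains of neutrophils and monocytes, were at 9.33 and 12.8 FPKM with naive T cells and at 1.59 and 2.32 FPKM with Treg, while un-injected mice had 318 and 351 FPKM. Ngp, a neutrophil granule gene, was at 0.476 and 1.40 FPKM and Ly6g was listed at 0 in both. Of 9 measured neutrophil genes 3 were higher with naive T cells and 6 lower, against 49% and 51% of all members. Only 1 library reached 1 FPKM for 5 of the 9. Over their lists the summed levels with naive T cells, Treg and no injection were 32.9, 23.3 and 897.5 FPKM for 22 neutrophil genes, of which S100a8 and S100a9 made up most with naive T cells, 916 FPKM, 1049 FPKM and 1905 FPKM for 25 macrophage genes and 147, 135 and 192 FPKM for 26 T cell genes. The part of these cells in the type 1 and cell cycle values was not tested.

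Among T cell genes that dendritic cells also use, Tnfrsf4, which encodes OX40, was at 14.2 FPKM with naive T cells and 4.98 FPKM with Treg. Tnfsf4, its ligand, was at 3.85 and 0.921 FPKM. Cd4 was at 46.9 and 47.6 FPKM. Receptor and ligand of the OX40 pair were both higher with naive T cells, the ligand at values under the level set for naming by ratio.

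The list of tolerance-linked genes was near equality, with a median log2 ratio of -0.14 over 18 genes. In number 7 were higher, against 49% of all members. Fkbp5, of this list, a co-chaperone that glucocorticoids raise, was at 12.5 FPKM with naive T cells, 39.9 FPKM with Treg and 14.9 FPKM in un-injected mice, so that the Treg library stood apart. Klf9, another glucocorticoid target of the list, was at 0.852 and 1.98 FPKM with naive T cells and Treg, and Dusp1, which glucocorticoids also raise, at 471 and 459 FPKM. Other genes that were lower with naive T cells stood on no list. Sult1a1, a sulfotransferase, was at 10.9, 46.6 and 38.3 FPKM in the naive, Treg and un-injected libraries, and Fgfr1, a fibroblast growth factor receptor, at 9.91, 35.3 and 21.1 FPKM. Anapc5, a subunit of the anaphase-promoting complex, was at 521 FPKM with Treg against 86.6 FPKM with naive T cells and 82.6 FPKM un-injected, and its values in the 3 lymph node libraries lay between 37.5 and 65.5 FPKM. Ndufc1, of respiratory complex I, was at 20.2 FPKM with naive T cells and 76.5 FPKM with Treg, while the other 38 oxidative phosphorylation genes lay within 2-fold. In the authors' deposited table the p-value was 0.0654 for Fkbp5, 0.0362 for Fgfr1 and 0.241 for Anapc5.

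Housekeeping groups were close to equality. The 38 ribosomal protein genes had a median log2 ratio of -0.08, the 39 oxidative phosphorylation genes 0.16, the 25 glycolysis genes 0.11 and the 26 genes of cholesterol and fatty acid synthesis -0.24. Of 22 heat shock and ER stress genes 17 were higher, against 49% of all members, at a median of 0.27. Hsph1, a chaperone, was at 28.6 FPKM with naive T cells and 13.7 FPKM with Treg. Of 24 inflammasome and cell death genes 18 were higher and 3 at least 2-fold, against 49% and 4.56% of all members. Casp4, the sensor of cytosolic lipopolysaccharide in mice known as caspase 11, was at 31.5 and 13.7 FPKM. Only 1 library reached 1 FPKM for 2 of the 22 genes and 1 of the 24. Toll-like receptors and their adaptors were at -0.01.

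The same pair of transfers in peripheral lymph node shares no library with spleen. The sample titles do not say whether both tissues came from the same mice, so the pairs may not be independent. There 1065 of 10446 genes (10.2%) were at least 2-fold higher with naive T cells and 1234 (11.8%) lower. In both tissues 139 genes were at least 2-fold higher, which is 30.3% of the spleen genes and 13.1% of those of lymph node. A further 80 were at least 2-fold lower in both (19.8% and 6.48%). As a base, 9.11% of all spleen members were at least 2-fold higher in lymph node and 9.58% at least 2-fold lower. Genes at least 2-fold higher in spleen and lower in lymph node numbered 42 (9.15% of the higher spleen genes). The reverse held for 39 (9.63% of the lower spleen genes). Of the 139 genes 43 stood on an interferon list, as did 88 of all 10058 members. Across the 10058 members the log2 ratios of the tissues had a Pearson r of 0.19 and a Spearman rho of 0.17. These describe genes, which are not independent replicates. Without the interferon lists, left out after the data were seen, r was 0.15 over 9970 genes.

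The interferon response was the larger in lymph node. Its ratio there exceeded the spleen ratio in 77 of the 88 genes, and 75 were at least 2-fold higher, against 9.11% of the spleen members. Cxcl10 was at 1069 FPKM with naive T cells and 24.1 FPKM with Treg in lymph node, and Zbp1 at 551 and 42.6 FPKM. Gbp2 was close to its spleen ratio, at 660.1 and 92.4 FPKM. The maturation genes went the other way, with 20 of 32 at least 2-fold lower in lymph node, against 9.58% of the spleen members. The difference between the tissues was not tested. At 5 FPKM or more in at least 1 library of each pair stood 6960 members, clone names included. Interferon lists held none of 6882 of these. Of the genes at least 2-fold higher in both tissues and at that level, 75 in number, 38 were interferon genes. By the smaller of their 2 ratios the leading 10 included Gbp2, Tgtp2, Ly6a, Cfb, Cxcl10, Zbp1 and Igtp. The other members of this 10 were Iigp1, Serpina3f and S100a8, each listed at 0 with Treg in a tissue, so that their place rests on the 0.5 added to each value. Lower in both at that level were 24 genes, among them Sult1a1, Fgfr1, Zfp788, Fkbp5, Slc26a6, Rnf150, Fam131a and Cx3cr1. Fkbp5 in lymph node was at 9.67 FPKM with naive T cells, 28.5 FPKM with Treg and 9.23 FPKM un-injected, so that the Treg library was again the highest of the 3. Sult1a1 was at 4.19, 29.8 and 1.65 FPKM there.

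**Figure D5:**
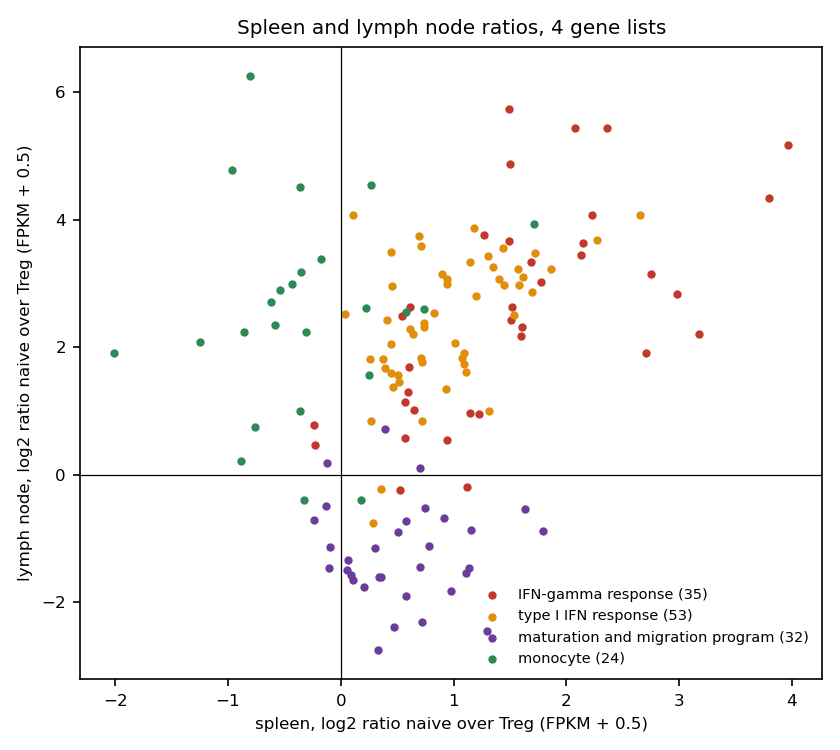
Log2 ratio of naive T cell over Treg recipients in spleen (horizontal) and lymph node (vertical), each point 1 gene of 4 lists. Interferon genes lie mainly in the upper right, maturation genes in the lower right with medians of 0.49 and -1.39, and monocyte genes mainly in the upper left with medians of -0.36 and 2.58.

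The authors' deposited table compares the same pair of libraries. Of the 7473 members with a tested p-value as the authors' deposited table gives it, 19 (0.254%) were at 0.05 or less, 4 (0.0535%) at 0.01 or less, and 3 had a q-value of 0.1 or less. Of these 19 genes, 16 were higher with naive T cells, and 10 stood on an interferon list. Over all 10058 members 49% were higher and 88 stood on such a list. These p-values compare 1 library with another and hold no spread between mice.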

How the data were processed

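Dendritic cells were sorted, and total RNA went into TruSeq libraries, per the labels' protocols. The submitters' processing notes list RSEM, edgeR 3.16.5 and the builds GRCm38.p4 and mm10 without saying what each was used for. The FPKM values of 6 libraries were computed and deposited by the authors in 1 table. Its header names no unit, and this unit was inferred, since values are fractional and their sums differ between libraries. The authors also deposited, per the file headers, a table of the 2 spleen libraries with a p-value and q-value per gene from a tool not given in the sources used here. Both hold no counts, so depth is unknown and no counting interval is given.

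Where a symbol had several lines (38 symbols) they were summed, and 1131 symbols on X or Y were left out. A 0 can be a missing estimate, so no fold is given against it. The ratio is log2 of FPKM + 0.5 of naive over Treg (Python 3.11.15, pandas 2.3.3), checked on simulated folds. Members were described by 41 gene lists with 1039 genes, 824 of them members. Members, lists and the plan were chosen with earlier results of these data known. The plan named by ratio the 15 genes highest and 15 lowest in spleen at 5 FPKM or more and above 0 in both libraries, without clone names and antigen receptor segments. It also named the 3 highest and 3 lowest of each list, cell type markers, other genes of the same lists as levels, and 10 each way that differed 2-fold in both tissues. The text gives a choice of these, and some items are not reported here. Coordinates come from GENCODE M21 by symbol, promoters from the first RefSeq window of a symbol. Alternatives were pseudocounts 1 and 0.1, library totals, median-ratio factors and 3 filters.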

Additional observations from a re-analysis of the deposited data

Results flagged for a closer look

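Some values went in opposite directions in the 2 tissues. The difference between tissues was not tested in any case, since each side has 1 library. The maturation and migration list had a median log2 ratio of naive over Treg of 0.49 in spleen and -1.39 in lymph node. Ccr7 was at 508 and 312 FPKM with naive T cells and Treg in spleen and at 895 and 2427 FPKM in lymph node. The monocyte list had a median of -0.36 in spleen and 2.58 in lymph node, where Ly6c2 was at 1119 and 47.4 FPKM. The T cell list had a median of 0.54 in spleen and -1.23 in lymph node, over 10 genes, most of them low, and -0.02 in spleen over genes at 5 FPKM or more.

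Of the 15 genes named for the lowest ratios in spleen, 3 went past 2-fold in the other direction in lymph node. Apoc2, a cofactor of lipoprotein lipase, had log2 ratios of -2.82 and 2.85, from 1.06 and 10.5 FPKM in spleen and 15.6 and 1.73 FPKM in lymph node. Btg3, an antiproliferative protein, had -1.94 and 1.10, and Gstm1, a glutathione transferase, -1.96 and 1.58.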

How the results depend on the processing

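The counts depend on the filter. At 1 FPKM or more in both libraries 223 genes were at least 2-fold higher and 204 lower, and at 5 FPKM or more in at least 1 library 195 and 165, since fewer low genes enter. With no filter, either pseudocount or either scaling they lay between 344 and 680 and between 303 and 569, and the share that was higher stayed between 49.5% and 54.4%. The median of the interferon-gamma list lay between 1.36 and 1.62 and that of the type I list between 0.86 and 0.94 over all 7 alternatives. Cell cycle lay between 0.68 and 0.77 and type 1 dendritic cells between -0.37 and -0.36. Of 41 list medians 8 changed sign under at least 1 alternative. The chemokine list was at -0.50 and the neutrophil list at 1.01 over genes at 1 FPKM or more in both libraries, and the neutrophil list was at 2.23 at 5 FPKM or more, against 0.32 and -0.30 as reported by the membership rule. With no filter the erythroid list was at -0.24, against -0.89. No named gene past 2-fold changed sign. No paired analysis was possible because each group holds 1 library, and none can be left out. Values near 1 FPKM limit what low genes can show.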

Other observations

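Several of the genes highest with naive T cells in spleen belong to no list and were not 2-fold higher in lymph node. Sult2b1, a sterol sulfotransferase, was at 9.59 FPKM with naive T cells, 0.457 FPKM with Treg and 4.37 FPKM in un-injected spleen, and in lymph node it was listed at 0 with naive T cells. Gnb4, a G protein beta subunit, was at 15.99, 2.58 and 6.56 FPKM in the 3 spleen libraries, against 43.4 and 49.9 FPKM with naive T cells and Treg in lymph node. Cep128, a centriole protein, was at 19.2, 3.33 and 2.79 FPKM in spleen, and Coa6, an assembly factor of cytochrome oxidase that overlaps Tarbp1, at 6.69, 0.782 and 6.13 FPKM.

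Cd74, which encodes the invariant chain of MHC class II, had a p-value of 5e-05 in the authors' deposited table at a log2 ratio of -0.11 here. Rsc1a1, which lies within Ddi2, was at 5.67 FPKM with Treg and at 0.000137 FPKM with naive T cells and 2.06 FPKM in un-injected mice.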
